A study of Drosophila melanogaster with 16 samples.

Results

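Cytochrome P450 genes were followed in whole Drosophila melanogaster larvae across 2 diets and 2 genotypes. The members are all genes whose symbol has the form Cyp, number, letter, number and that reached 1 CPM (normalised read count, by the name of the deposited table) in at least 4 of the 16 libraries. All 67 genes that matched the name passed this minimum, among 9863 genes in the table and 9837 genes tested. They comprise 20 Cyp6, 19 Cyp4, 7 Cyp12, 6 Cyp9 and 3 Cyp28 genes and 12 genes of other families. P450s that are named without the Cyp prefix, such as the ecdysone synthesis enzymes phm and sad, are not members and are given apart.

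Total RNA was sequenced from 4 libraries in each of 4 groups: larvae of a control strain, labelled CTRL, and larvae of cwoB9, labelled MUT, a mutant of the transcriptional repressor gene clockwork orange (cwo), each on a low and a high sugar diet. All larvae spent 24 h from the first instar at 25 °C on the low sugar diet of 10% yeast. Early second instar larvae were then moved for 8 h to fresh low sugar diet or to high sugar diet, which held 10% yeast and 15% sucrose, both with 2% blue dye. Feeding larvae were taken, and their number per sample is not stated. The control strain is not described further, so an effect of the cwoB9 allele and one of the genetic background of the strains cannot be told apart. Nothing in the labels says whether the 4 libraries of a group came from separate cultures, and p-values therefore measure the spread between these libraries, which may be technical.

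P450 enzymes are heme proteins that insert an oxygen atom into their substrate. Most sit in the endoplasmic reticulum and receive electrons from the reductase Cpr, whereas those of the mitochondrial clan, Cyp12 genes among them, receive them from ferredoxins and the reductase dare. In insects some P450s break down insecticides and plant toxins, chiefly in midgut, fat body and Malpighian tubules, and others make or inactivate hormones and cuticle lipids.

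The depth recovered from the steps of the deposited values was 44.9 to 54.2 M reads per library. RNA of cwo was not lower but higher in the libraries labelled mutant, at 181 ± 28.2 against 57.0 ± 1.53 CPM on low sugar and 279 ± 11.4 against 68.9 ± 3.93 CPM on high sugar (mean ± SD, n = 4), so the level of its RNA does not by itself check the labels. In each group 1 library had higher Tweedle cuticle RNAs, a family made around a moult, than the rest (control low sugar replicate 1, control high sugar replicate 4, labelled mutant low sugar replicate 4 and high sugar replicate 3). Their mean log2 Tweedle levels were 5.26 to 5.96, against 3.12 to 4.78 in the other libraries. Control low sugar replicate 1 was also the highest of its group for 33 of the 67 P450 genes (49.3%), against 31.0% of all tested genes. Cyp6a8 had 62.4 CPM there and 19.7 to 24.7 CPM in the other 3 libraries, and Cyp6a20 had 27.8 against 9.75 to 12.01 CPM. For several genes described below, but not for all, calls that change without these libraries are given both ways.

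Levels of different genes were compared as CPM per kb of exon, with exon lengths from Ensembl's annotation of BDGP6. The median P450 gene lay at 7.97 CPM per kb over all libraries, 3 genes lay under 1 and 7 over 50. Cyp9b2 (97.4), Cyp6a23 (80.6), Cyp12a4 (77.2), Cyp4g1 (73.3) and Cyp6d5 (69.8 CPM per kb) were the 5 highest by the mean over all libraries. Cyp12a4 is known from a strain resistant to the insecticide lufenuron, and Cyp4g1 is the oenocyte enzyme that forms the hydrocarbons of the cuticle. The order changed with the group. In control larvae on low sugar Cyp28d2 ranked first with 172 CPM per kb, but in larvae labelled mutant on low sugar it ranked 41 with 4.03. In larvae labelled mutant on high sugar the highest were Cyp9b2 with 107, Cyp6a23 with 104 and Cyp4p1 with 86.4 CPM per kb. Together the 67 genes summed to 2158 ± 146 and 2443 ± 121 CPM on low and high sugar in control, and 2087 ± 64.1 and 1995 ± 71.6 CPM in larvae labelled mutant.

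**Figure D1:**
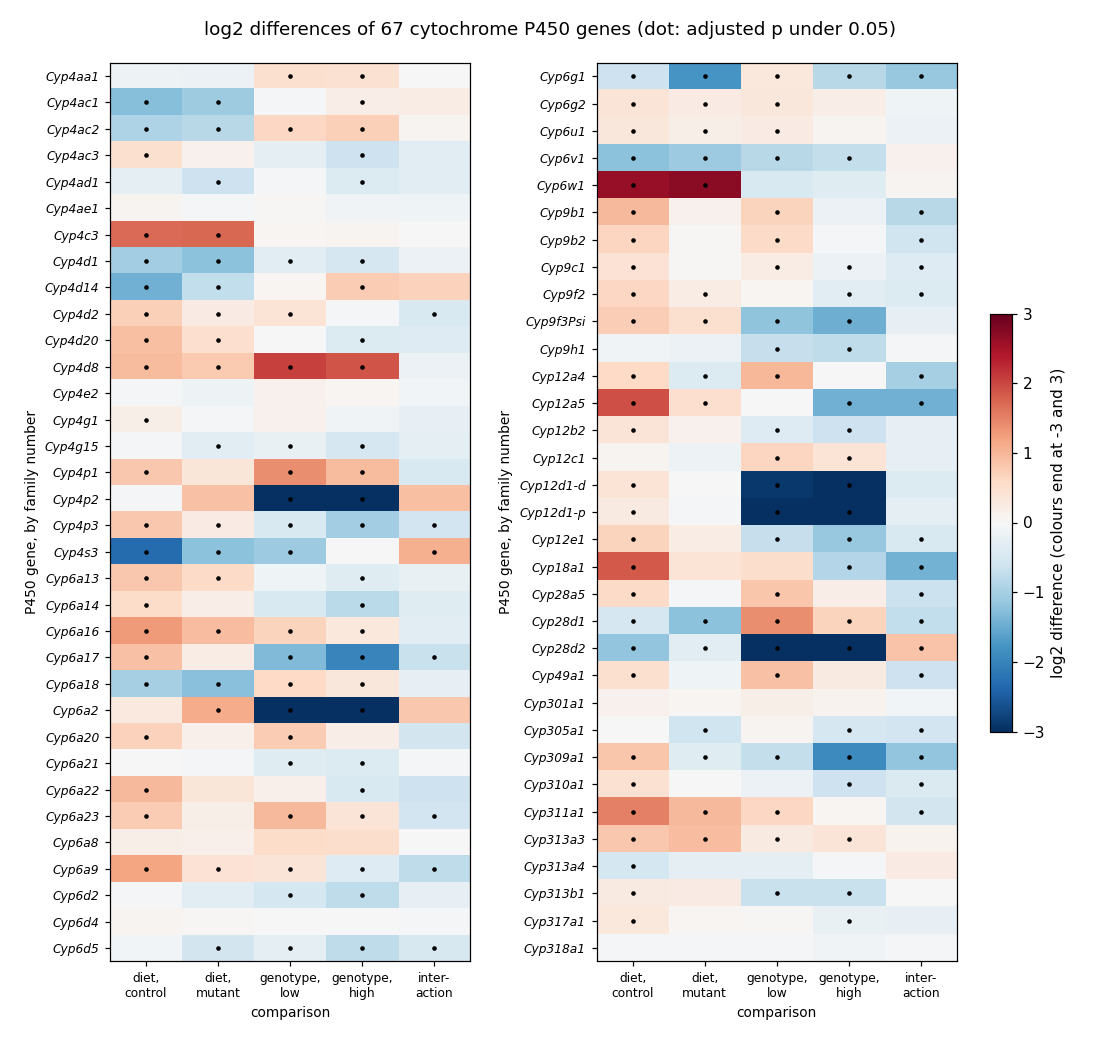
Log2 difference of each of the 67 P450 genes (rows, grouped by family) in the 5 comparisons (columns), with red for higher, blue for lower, colours that end at -3 and 3, and a dot where limma's adjusted p was under 0.05. The diet column of control holds 39 genes that rose and 11 that fell, and the deepest blue fields are in the genotype columns, at Cyp28d2, Cyp4p2, Cyp6a2 and the Cyp12d1 pair.

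The first comparison asked how P450 RNAs responded to sugar in control larvae. On high sugar 39 of the 67 genes rose and 11 fell, so that 74.6% changed, against 67.9% of all tested genes. Among all tested genes 33.1% rose and 34.8% fell, against 58.2% and 16.4% of the P450 genes, and the median log2 difference of high minus low sugar was 0.38 for the P450 genes and 0.00 for all genes. Genes changed by 1 log2 unit or more numbered 7 higher and 7 lower, where 5.16% and 4.44% of all tested genes did so. By family, 6 of 7 Cyp12, 5 of 6 Cyp9, 11 of 20 Cyp6 and 8 of 12 genes of other families rose and 0, 0, 3 and 1 of them fell. Of 19 Cyp4 genes 8 rose and 5 fell, and of 3 Cyp28 genes 1 rose and 2 fell. In whole larvae, fewer cells of a type and less RNA per cell cannot be told apart. Summed midgut markers moved with the diet as well, and their values stand with those of other tissues below. Tests here and below are limma fits over all tested genes with Benjamini-Hochberg adjustment and a threshold of 0.05, and log2 differences are on the log2(CPM + 0.5) scale with their standard error.

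The largest rise was that of Cyp6w1, a member of the clan that holds most insecticide-metabolising P450s. It read 18.5, 12.1, 11.5 and 11.01 CPM in the control libraries on low sugar, here and below in the order of replicates 1 to 4, and 74.4, 85.8, 85.6 and 84.9 CPM on high sugar. In larvae labelled mutant it read 7.18, 8.70, 13.6 and 9.07 CPM on low and 69.2, 74.8, 64.2 and 50.8 CPM on high sugar. No library on low sugar reached any library on high sugar in either genotype. The log2 difference was 2.62 ± 0.18 (adjusted p = 6.82e-09) in control and 2.71 ± 0.18 (adjusted p = 1.30e-08) in larvae labelled mutant.

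Cyp4c3, of a family that holds many fatty acid hydroxylases, also rose in both genotypes. Control libraries had 27.3, 18.5, 22.5 and 21.1 CPM on low and 60.6, 71.7, 90.6 and 72.6 CPM on high sugar. Libraries labelled mutant had 19.5, 22.4, 27.1 and 23.3 CPM on low and 77.5, 79.0, 79.8 and 71.3 CPM on high sugar. The diets did not overlap, and the log2 differences were 1.70 ± 0.13 (adjusted p = 1.47e-08) in control and 1.72 ± 0.13 (adjusted p = 3.60e-08) in larvae labelled mutant. The difference of these 2 responses, 0.02 ± 0.18 log2 units, did not pass the test (adjusted p = 0.952).

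Cyp311a1, of the clan of the Cyp4 genes, rose in both genotypes as well, from 5.07 ± 0.725 to 15.4 ± 1.03 CPM in control (log2 difference 1.52 ± 0.11, adjusted p = 9.81e-09) and from 8.00 ± 0.948 to 16.1 ± 1.97 CPM in larvae labelled mutant (0.97 ± 0.11, adjusted p = 3.01e-06). Cyp6a16 went from 2.31 ± 0.342 to 6.33 ± 0.971 CPM in control, a log2 difference of 1.28 ± 0.11 (adjusted p = 9.78e-08), and by 0.93 ± 0.11 (adjusted p = 6.61e-06) in larvae labelled mutant. Cyp6a9 rose by 1.19 ± 0.11 (adjusted p = 2.56e-07) in control. It rose by 0.43 ± 0.11 (adjusted p = 0.00504) in larvae labelled mutant. Smaller rises in control included those of the abundant genes Cyp9b2 (0.65), Cyp6a23 (0.75) and Cyp12a4 (0.60), and Cyp4g1 changed least among those that passed (0.18 ± 0.06, adjusted p = 0.0220). The Cyp4g1 call was lost without control low sugar replicate 1 (0.17, adjusted p = 0.0523).

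The falls in control were led by Cyp4s3. It read 38.5, 49.6, 44.7 and 45.5 CPM on low and 8.32, 7.48, 9.08 and 9.68 CPM on high sugar in control. Libraries labelled mutant read 16.3, 19.7, 21.4 and 26.2 CPM on low and 6.49, 8.88, 9.55 and 9.503 CPM on high sugar. On high sugar the genotypes overlapped, whereas on low sugar every control library lay above every library labelled mutant. The log2 difference of diet was -2.30 ± 0.14 (adjusted p = 1.99e-09) in control and -1.23 ± 0.14 (adjusted p = 3.51e-06) in larvae labelled mutant.

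Cyp4d14, Cyp4ac1, Cyp6v1 and Cyp28d2 followed. Cyp4d14 had 14.05, 12.2, 13.5 and 9.47 CPM on low and 4.76, 5.27, 3.99 and 2.94 CPM on high sugar in control, and in larvae labelled mutant 10.8, 12.8, 14.3 and 12.9 CPM on low and 10.1, 6.87, 6.33 and 6.55 CPM on high sugar. Its log2 differences were -1.45 ± 0.17 (adjusted p = 2.32e-06) and -0.75 ± 0.17 (adjusted p = 0.00185). On high sugar replicate 1 of the labelled mutant stood above the other 3, and on low sugar the genotypes overlapped. Cyp4ac1 had 71.7, 68.9, 70.0 and 67.4 CPM on low and 27.3, 27.4, 28.2 and 30.0 CPM on high sugar in control, and in larvae labelled mutant 77.0, 68.3, 67.4 and 61.6 CPM on low and 33.9, 32.3, 28.8 and 35.1 CPM on high sugar. Its log2 differences, -1.29 ± 0.07 (adjusted p = 4.31e-10) and -1.06 ± 0.07 (adjusted p = 7.26e-09), came from diets that did not overlap in either genotype. Cyp6v1 had 46.0, 48.0, 42.7 and 50.2 CPM on low and 21.0, 19.6, 19.2 and 18.9 CPM on high sugar in control, and in larvae labelled mutant 33.8, 24.9, 22.3 and 23.8 CPM on low and 11.7, 11.3, 12.1 and 12.1 CPM on high sugar. It was lower on high sugar and also lower in larvae labelled mutant, with log2 differences of diet of -1.23 ± 0.10 (adjusted p = 2.75e-08) and -1.10 ± 0.10 (adjusted p = 2.72e-07). Cyp4d1 and Cyp6a18 fell too, with log2 differences of -1.05 ± 0.12 and -1.01 ± 0.11 in control and of -1.22 ± 0.12 and -1.25 ± 0.11 in larvae labelled mutant.

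**Figure D2:**
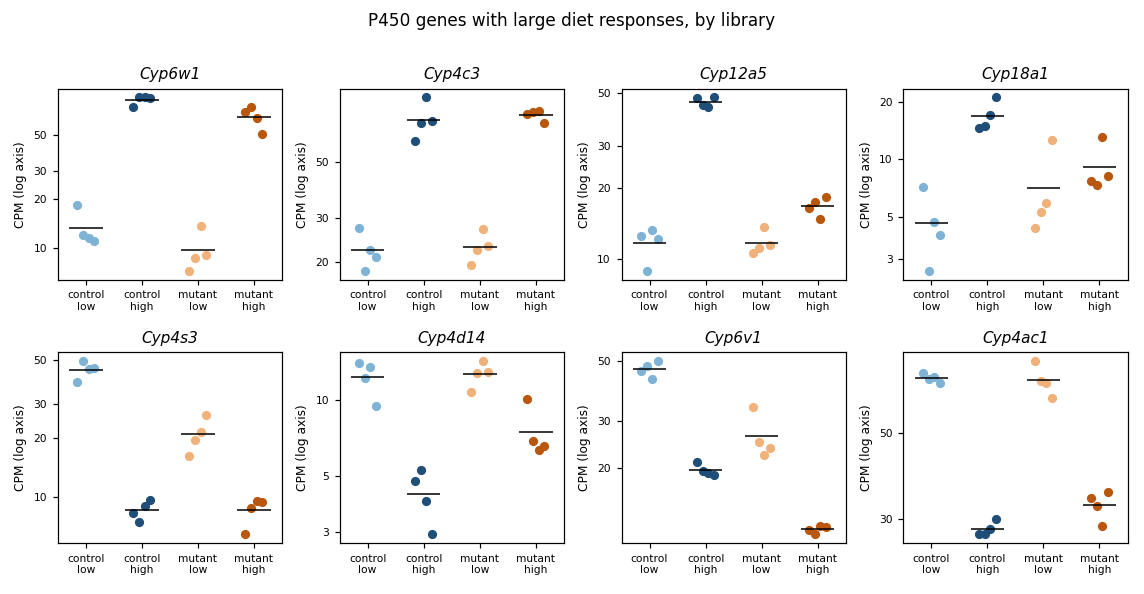
CPM (log axis) of 8 P450 genes in each library (points) of the 4 groups, with the group mean as a horizontal line; n = 4 per group. Cyp6w1 and Cyp4c3 sit higher on high sugar in both genotypes, Cyp12a5 sits at 43.4 to 47.8 CPM in control and 14.7 to 18.2 CPM in larvae labelled mutant on high sugar, and the 4 genes of the lower row sit lower on high sugar.

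In larvae labelled mutant 17 of the 67 genes rose on high sugar, 16 fell and 34 did not pass the test, where 22.5% of all tested genes rose and 29.5% fell. In all 49.3% of the P450 genes and 52.1% of all tested genes passed. Rises of 1 log2 unit or more numbered 3 and falls 7, where 2.31% and 1.86% of all tested genes did so. The median log2 difference was 0.04 for the P450 genes and -0.01 for all genes. Of the 39 genes that rose in control, 16 (41.0%) also rose in larvae labelled mutant, 2 (5.13%) fell and 21 did not pass. The 21 include Cyp12d1-d and Cyp12d1-p, whose levels in larvae labelled mutant were too low for a diet response to be read. The same holds for the Cyp12 family count below. Among all tested genes that rose in control, 59.6% also rose and 1.17% fell in larvae labelled mutant. Of the 11 genes that fell in control 10 (90.9%) also fell there, against 75.3% of all genes that fell in control, and the exception was Cyp313a4 (-0.28 ± 0.12, adjusted p = 0.0659). These 2 responses share no library. By family, 7 of 20 Cyp6, 5 of 19 Cyp4, 2 of 6 Cyp9, 1 of 7 Cyp12, 0 of 3 Cyp28 and 2 of 12 other genes rose, and 4, 7, 0, 1, 2 and 2 fell. Cyp305a1, Cyp4ad1, Cyp4g15 and Cyp6d5 passed as lower in larvae labelled mutant but not in control, and the difference of the responses passed for Cyp305a1 (-0.58 ± 0.17, adjusted p = 0.0314) and Cyp6d5 but not for Cyp4ad1 (-0.35 ± 0.17, adjusted p = 0.191) and Cyp4g15 (-0.27 ± 0.10, adjusted p = 0.0705).

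**Figure D3:**
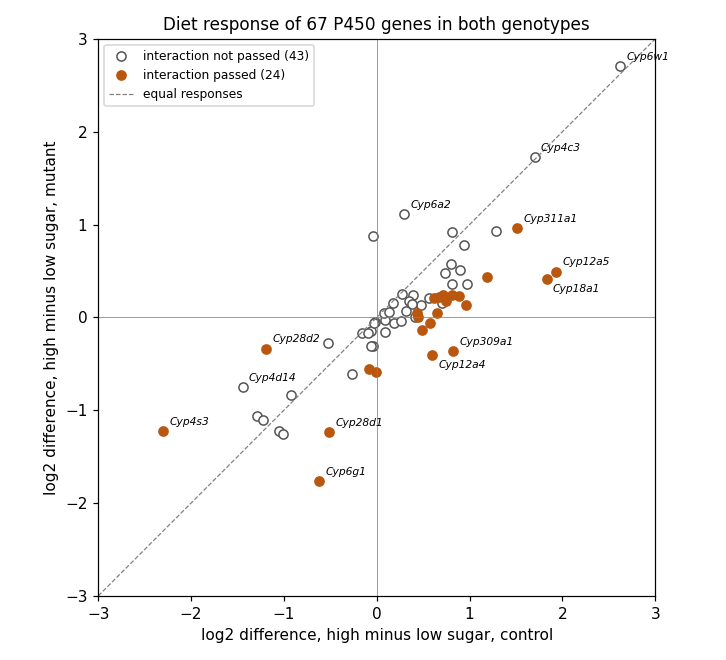
Log2 difference of high minus low sugar in control (horizontal axis) and in larvae labelled mutant (vertical axis) for the 67 P450 genes, coloured by whether the difference of the 2 responses passed the test. Of the 39 genes that rose in control 16 also rose in larvae labelled mutant, and 10 of the 11 that fell also fell.

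Whether the sugar response differed between the genotypes was tested as the response in larvae labelled mutant minus that in control, which uses the libraries of the comparisons above. It was lower for 22 and higher for 2 of the 67 genes, where 8.95% of all tested genes were lower and 7.92% higher, and its median was -0.25 for the P450 genes and 0.00 for all genes. In all 35.8% of the P450 genes passed, against 16.9% of all tested genes. Differences of 1 log2 unit or more numbered 4 lower and 1 higher, where 1.07% and 0.529% of all tested genes were so. Without the 4 libraries of highest Tweedle levels 15 genes were lower, 14 of them among the 22, and Cyp12e1, Cyp28d1, Cyp305a1, Cyp310a1, Cyp6a23, Cyp6a9, Cyp9b1 and Cyp9f2 no longer passed. Without replicate 1 of the labelled mutant on low sugar 4 genes were higher. The lower genes comprised 3 Cyp12, 4 Cyp9, 5 Cyp6, 2 Cyp4, 2 Cyp28 and 6 other genes, and the higher ones were Cyp28d2 and Cyp4s3.

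Cyp12a5 and Cyp12a4 are mitochondrial P450 genes that lie next to each other on chromosome 3R (BDGP6, 19132648 to 19134704 and 19135158 to 19137136, plus strand). Cyp12a5 read 12.5, 8.93, 13.3 and 12.2 CPM on low and 47.7, 44.4, 43.4 and 47.8 CPM on high sugar in control, and in larvae labelled mutant 10.6, 11.1, 13.7 and 11.5 CPM on low and 16.4, 17.4, 14.7 and 18.2 CPM on high sugar. On low sugar the genotypes overlapped, and on high sugar no library labelled mutant came near the control libraries. Its rise was 1.93 ± 0.11 (adjusted p = 8.05e-10) in control and 0.49 ± 0.11 (adjusted p = 0.00124) in larvae labelled mutant, and the difference of the responses was -1.44 ± 0.15 (adjusted p = 2.75e-05). Cyp12a4 read 84.4, 84.7, 85.7 and 93.5 CPM on low and 130.0, 129, 127 and 141 CPM on high sugar in control, and in larvae labelled mutant 184, 160.3, 180.0 and 171 CPM on low and 132, 129, 126 and 139 CPM on high sugar. It was highest in larvae labelled mutant on low sugar and overlapped between the genotypes on high sugar, where the difference was -0.003 ± 0.05 (adjusted p = 0.973). It thus rose in control, 0.60 ± 0.05 (adjusted p = 8.36e-08), and fell in larvae labelled mutant, -0.40 ± 0.05 (adjusted p = 1.25e-05), with a difference of -0.996 ± 0.07 (adjusted p = 1.56e-06).

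Cyp309a1 was the other gene with opposite calls. It read 33.4, 38.0, 27.4 and 30.9 CPM on low and 65.7, 61.1, 48.96 and 54.7 CPM on high sugar in control, and in larvae labelled mutant 18.9, 18.4, 22.8 and 17.4 CPM on low and 16.7, 15.7, 13.7 and 13.8 CPM on high sugar. The diets did not overlap in either genotype, although they lay close together in larvae labelled mutant. The diet difference was 0.82 ± 0.11 (adjusted p = 9.99e-06) in control and -0.36 ± 0.11 (adjusted p = 0.0133) in larvae labelled mutant, and the responses differed by -1.18 ± 0.16 (adjusted p = 2.71e-04).

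Cyp6g1, known for resistance to DDT and other insecticides when overexpressed, fell in both genotypes but further in larvae labelled mutant. It read 14.6, 17.4, 14.9 and 15.1 CPM on low and 10.5, 10.0, 8.09 and 11.3 CPM on high sugar in control. Libraries labelled mutant read 18.8, 18.2, 21.8 and 18.7 CPM on low and 5.30, 5.54, 5.06 and 5.48 CPM on high sugar. They were the highest libraries on low sugar and the lowest on high sugar. The diet differences were -0.62 ± 0.09 (adjusted p = 1.59e-05) and -1.76 ± 0.09 (adjusted p = 6.58e-10), and the responses differed by -1.14 ± 0.12 (adjusted p = 3.66e-05). Its gene body overlaps that of Cyp6g2 on the other strand, and whether reads were counted by strand is not stated.

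Cyp18a1, which inactivates the moulting hormone 20-hydroxyecdysone, read 7.15, 2.59, 4.66 and 4.01 CPM on low and 14.5, 15.0, 17.1 and 21.1 CPM on high sugar in control. Libraries labelled mutant read 4.36, 5.28, 5.88 and 12.6 CPM on low and 7.66, 7.32, 13.05 and 8.19 CPM on high sugar. In every group its highest library was the library with the highest Tweedle levels, which held for no other P450 gene and for 1.07% of all tested genes. Its rise in control was 1.83 ± 0.30 (adjusted p = 6.17e-05) and its difference between the diets in larvae labelled mutant 0.42 ± 0.30 (adjusted p = 0.259). The difference of the responses, -1.41 ± 0.42 (adjusted p = 0.0336), lost its call in 8 of the 16 fits that left out 1 library. Without the 4 libraries of highest Tweedle levels Cyp18a1 passed in larvae labelled mutant (0.54, adjusted p = 0.0165). The part of the moult stage in these values was not tested.

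Further members responded differently by this test. Cyp9b2 went from 116 ± 18.2 to 181 ± 11.1 CPM in control and from 173 ± 9.67 to 179 ± 21.7 CPM in larvae labelled mutant (difference of responses -0.61 ± 0.15, adjusted p = 0.0114). Its neighbour Cyp9b1 differed by -0.83 ± 0.20 (adjusted p = 0.0122), which did not pass without the 4 libraries of highest Tweedle levels (-0.80, adjusted p = 0.0696). Cyp49a1, of the mitochondrial clan, differed by -0.62 ± 0.17 (adjusted p = 0.0233), and Cyp6d5, which had no diet call in control and fell in larvae labelled mutant, by -0.48 ± 0.13 (adjusted p = 0.0230). Cyp4s3 and Cyp28d2 went in the other direction: their falls were smaller in larvae labelled mutant, where both started lower. The responses differed by 1.07 ± 0.20 (adjusted p = 0.00230) for Cyp4s3 and by 0.86 for Cyp28d2, which also passed.

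The genotypes were then compared within each diet. On low sugar 23 of the 67 genes were higher in larvae labelled mutant and 20 lower, where 23.1% of all tested genes were higher and 20.8% lower, and 64.2% of the P450 genes passed against 43.8% of all. On high sugar 12 were higher and 34 lower, where 21.1% were higher and 18.9% lower, and 68.7% of the P450 genes passed against 40.0% of all. The 20 and 34 lower genes include Cyp12d1-d and Cyp12d1-p, which met the minimum level only through control libraries. The median log2 difference on high sugar was -0.22 for the P450 genes and 0.00 for all genes. These 2 comparisons share no library with each other. Both use the libraries of the diet comparisons and of the difference of responses, so their counts are not separate from those above. In both, 10 genes were higher and 19 lower, and Cyp6a9, Cyp6g1 and Cyp9c1 were higher on low and lower on high sugar. How many of all tested genes were called so on both diets was not counted, so these numbers do not show a trait of P450 genes. Cyp6a9 had neither call without the 4 libraries of highest Tweedle levels (0.34, adjusted p = 0.0728, and -0.29, adjusted p = 0.119). On low sugar 2 Cyp12, 3 Cyp9, 8 Cyp6, 5 Cyp4, 2 Cyp28 and 3 other genes were higher, and 4, 2, 6, 5, 1 and 2 lower. On high sugar 1, 0, 3, 6, 1 and 1 were higher and 5, 4, 11, 7, 1 and 6 lower. Genes lower by 1 log2 unit or more numbered 8 on low and 11 on high sugar, where 2.02% and 2.06% of all tested genes were so, and those higher by as much numbered 3 and 1, against 3.64% and 2.25%.

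Cyp28d2 and Cyp4p2 had the largest genotype differences, and in both runs a neighbour was called in the other direction. Cyp28d2 and Cyp28d1, which have been linked to nicotine resistance, lie next to each other on chromosome 2L (BDGP6, 5207267 to 5209345 and 5210460 to 5212445, plus strand). Cyp28d2 read 269, 346, 242 and 296 CPM on low and 117, 127, 104 and 157 CPM on high sugar in control, and in larvae labelled mutant 5.97, 7.70, 7.37 and 5.91 CPM on low and 5.55, 4.93, 5.004 and 5.34 CPM on high sugar. The highest library labelled mutant lay far under the lowest control library. The log2 difference of genotype was -5.32 ± 0.13 (adjusted p = 9.00e-14) on low and -4.46 ± 0.13 (adjusted p = 6.10e-13) on high sugar. Cyp28d1 read 53.3, 60.0, 57.5 and 47.5 CPM on low and 33.8, 37.4, 39.9 and 41.3 CPM on high sugar in control, and in larvae labelled mutant 123, 124, 186 and 149 CPM on low and 63.8, 57.5, 54.9 and 66.6 CPM on high sugar. Every library labelled mutant was higher than every control library of its diet, with differences of 1.39 ± 0.12 (adjusted p = 1.89e-07) and 0.67 ± 0.12 (adjusted p = 3.20e-04). Both genes fell on high sugar in control, with log2 differences of -1.19 ± 0.13 and -0.51 ± 0.12, and in larvae labelled mutant, with -0.34 ± 0.13 and -1.24 ± 0.12. The Cyp28d2 call in larvae labelled mutant was lost in 5 of the 16 fits that left out 1 library.

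Cyp4p2, Cyp4p1 and Cyp4p3 follow each other on chromosome 2R (BDGP6, 9237512 to 9239831, 9240041 to 9242139 and 9242320 to 9244410, plus strand). Cyp4p2 read 63.2, 56.5, 54.6 and 54.0 CPM on low and 55.1, 52.1, 57.8 and 57.1 CPM on high sugar in control, and in larvae labelled mutant 3.67, 1.48, 0.269 and 0.153 CPM on low and 3.94, 4.23, 0.199 and 2.698 CPM on high sugar. The control libraries lay close together, and those labelled mutant were low and spread widely around their mean. Its genotype difference was -5.33 ± 0.57 (adjusted p = 2.53e-06) on low and -4.42 ± 0.57 (adjusted p = 1.82e-05) on high sugar. Cyp4p1 read 80.7, 30.8, 39.8 and 33.9 CPM on low and 70.0, 65.6, 84.8 and 82.2 CPM on high sugar in control, and in larvae labelled mutant 98.4, 99.7, 143 and 114.8 CPM on low and 149, 126, 144 and 162 CPM on high sugar. It was higher in every library labelled mutant than in the control libraries of the same diet, by 1.39 ± 0.23 (adjusted p = 1.61e-04) and 0.94 ± 0.23 (adjusted p = 0.00373), and control low sugar replicate 1 stood apart from its group. Cyp4p3 was lower, from 20.8 ± 1.46 in control to 14.9 ± 0.579 CPM on low sugar (-0.47 ± 0.08, adjusted p = 2.79e-04) and from 36.9 ± 1.78 to 17.8 ± 2.44 CPM on high sugar (-1.03 ± 0.08, adjusted p = 9.21e-08).

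Among Cyp6a genes, 7 lie with Cyp317a1 in a run of 8 members on chromosome 2R. In that run Cyp6a17, known for a role in temperature preference, and Cyp6a23 are neighbours on the plus strand (BDGP6, 14873953 to 14875739 and 14875829 to 14877654) and went opposite ways. Cyp6a17 read 18.6, 14.8, 19.7 and 19.4 CPM on low and 29.6, 34.5, 33.6 and 37.9 CPM on high sugar in control, and in larvae labelled mutant 7.36, 7.64, 6.55 and 6.34 CPM on low and 8.79, 9.14, 7.37 and 7.80 CPM on high sugar. Cyp6a23 read 79.1, 74.0, 80.0 and 98.7 CPM on low and 142, 128, 131 and 157 CPM on high sugar in control, and in larvae labelled mutant 174, 171, 148 and 155 CPM on low and 184, 204, 163 and 183 CPM on high sugar. Neither gene's genotypes overlapped on either diet. Cyp6a17 differed by -1.31 ± 0.10 (adjusted p = 5.90e-08) on low and -1.97 ± 0.10 (adjusted p = 5.20e-10) on high sugar, and Cyp6a23 by 0.97 ± 0.09 (adjusted p = 7.94e-07) and 0.39 ± 0.09 (adjusted p = 0.00325). The pair is similar in sequence, and how reads that match both were counted is not stated, so the split of reads between them is uncertain.

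Cyp6a2, known for raised levels in insecticide resistant strains and for induction by phenobarbital, read 139, 77.7, 76.8 and 78.2 CPM on low and 117, 113, 98.6 and 113 CPM on high sugar in control. In larvae labelled mutant it read 3.43, 3.53, 6.99 and 6.14 CPM on low and 11.98, 10.8, 9.85 and 11.2 CPM on high sugar, with no library near the control range. The genotype difference was -4.09 ± 0.21 (adjusted p = 5.89e-10) on low and -3.27 ± 0.21 (adjusted p = 8.95e-09) on high sugar. It was the only P450 gene that rose on high sugar in larvae labelled mutant (1.11 ± 0.21, adjusted p = 4.02e-04) without a call in control (0.30 ± 0.21, adjusted p = 0.224). The difference of the responses over all libraries did not pass (0.82 ± 0.30, adjusted p = 0.0738). It passed with the Tweedle level as a covariate (0.82, adjusted p = 0.0226), and its adjusted p was 0.0315 to 0.133 in the fits that left out 1 library. Without control low sugar replicate 1 the gene passed in control as well (0.51, adjusted p = 0.0246), and the responses differed by 0.61 without a call.

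The pair Cyp12d1-d and Cyp12d1-p are near-identical copies on chromosome 2R known to be induced by xenobiotics, and reads could be split between them. Cyp12d1-d read 3.74, 2.67, 2.69 and 3.97 CPM on low and 4.72, 3.97, 4.78 and 4.45 CPM on high sugar in control and was listed at 0 in all 8 libraries labelled mutant. Cyp12d1-p read 5.35, 4.83, 4.51 and 3.71 CPM on low and 5.55, 5.43, 5.63 and 5.75 CPM on high sugar in control, and in larvae labelled mutant 0.0651, 0.113, 0.0897 and 0.0766 CPM on low and 0.0851, 0.0607, 0.0397 and 0.0992 CPM on high sugar. For Cyp12d1-p the genotype difference was -3.11 ± 0.09 (adjusted p = 6.72e-13) on low and -3.42 ± 0.09 (adjusted p = 4.03e-13) on high sugar. These values depend on the added constant, and with 2 CPM in place of 0.5 they were -1.66 and -1.87. Both copies met the minimum level only through control libraries, so the p-values are not separate support for the difference. The copies are counted among the genes called lower on each diet and among those lower by 1 log2 unit or more. At these levels their diet response in larvae labelled mutant could not be read.

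**Figure D4:**
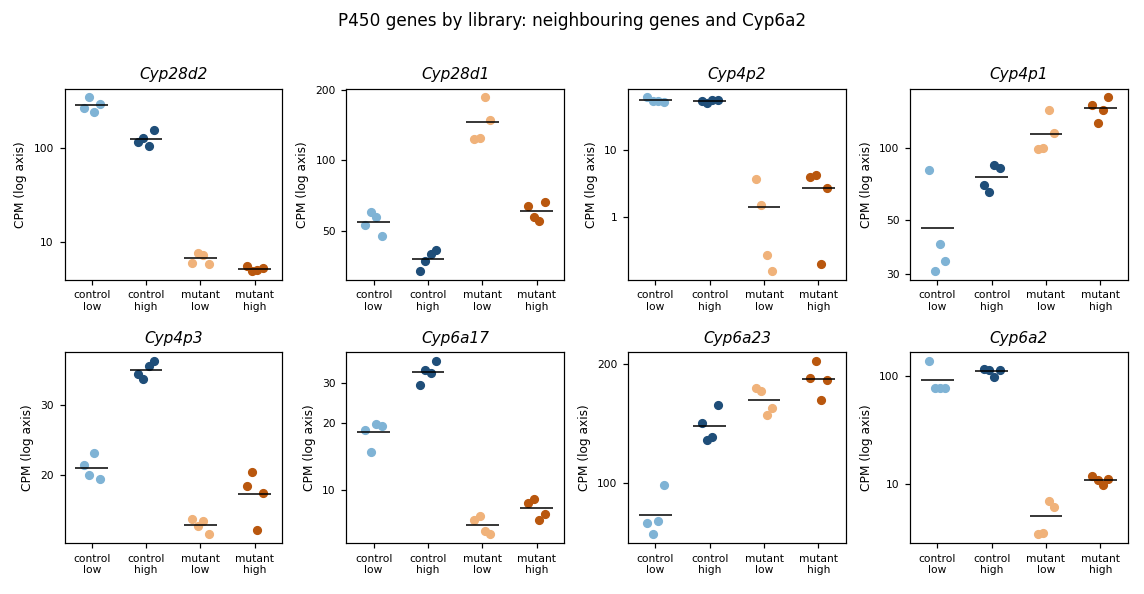
CPM (log axis) of 8 P450 genes in each library (points) of the 4 groups, with the group mean as a horizontal line; n = 4 per group. Cyp28d2, Cyp4p2, Cyp4p3, Cyp6a17 and Cyp6a2 sit lower in larvae labelled mutant on both diets, whereas the neighbours Cyp28d1, Cyp4p1 and Cyp6a23 sit higher.

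Fewer members were much higher in larvae labelled mutant. Cyp4d8 went from 0.639 ± 0.145 to 4.20 ± 0.542 CPM on low sugar (2.05 ± 0.13, adjusted p = 6.89e-09) and from 1.68 ± 0.195 to 7.60 ± 1.34 CPM on high sugar (1.88 ± 0.13, adjusted p = 1.99e-08). With 2 CPM added in place of 0.5 its difference on low sugar was 1.23. Cyp12c1, a mitochondrial P450 gene, was higher by 0.65 ± 0.08 (adjusted p = 1.24e-05) and 0.41 ± 0.08 (adjusted p = 9.03e-04), Cyp49a1 by 0.88 ± 0.12 (adjusted p = 3.08e-05) on low sugar and Cyp4d14 by 0.75 ± 0.17 (adjusted p = 0.00246) on high sugar. Among genes that were lower, Cyp9f3Psi, named as a pseudogene in the table and Cyp9f3 in the annotation, had log2 differences of -1.20 ± 0.16 (adjusted p = 2.62e-05) and -1.45 ± 0.16 (adjusted p = 4.18e-06). Cyp12e1, the member nearest to cwo, differed by -0.70 ± 0.10 (adjusted p = 4.09e-05) on low and -1.14 ± 0.10 (adjusted p = 2.59e-07) on high sugar. It lies on chromosome 3R (BDGP6, 10434789 to 10436704), 34037 bases from cwo, and the next nearest member lies 1742608 bases away.

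P450 genes sit in runs, here taken as members at most 20000 bases apart. There were 13 such runs with 36 members. On low sugar 7 runs had at least 2 genes with a genotype call, and in 4 of them the calls went both ways. On high sugar it was 5 of 8 runs. For the diet in control 3 of 11 such runs had calls in both directions, and for the diet in larvae labelled mutant 3 of 6. Runs of other genes were not counted, so these numbers do not show a trait of P450 genes. Of all members 34.3% were higher and 29.9% lower in larvae labelled mutant on low sugar, and 17.9% and 50.7% on high sugar. In the run of Cyp4d1, Cyp4d14, Cyp4d2 and Cyp4ae1 on the X chromosome, for instance, the diet differences in control were -1.05 ± 0.12, -1.45 ± 0.17 and 0.71 ± 0.05 log2 units for the first 3 genes, all called, and 0.09 ± 0.15 (adjusted p = 0.599) for Cyp4ae1.

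Summed over members, the families differed in how the groups were ordered. Cyp12 genes gave 144 ± 6.90 CPM in control on low sugar and 237 ± 9.65 on high sugar, and 226 ± 12.95 and 188 ± 8.57 in larvae labelled mutant. Cyp28 genes gave 364 ± 44.5 and 195 ± 25.5 CPM in control and 189 ± 30.1 and 101 ± 6.02 in larvae labelled mutant. The Cyp12 sum is carried mainly by Cyp12a4, and the Cyp28 sum in control by Cyp28d2. Cyp9 genes gave 279 ± 23.8 and 418 ± 19.1 CPM in control and 345 ± 16.8 and 367 ± 24.2 in larvae labelled mutant. The 12 genes of other families gave 127 ± 6.20 and 195 ± 5.25 CPM in control and 125 ± 6.32 and 129.8 ± 1.51 in larvae labelled mutant. Cyp6 genes gave 568 ± 90.7 and 733 ± 44.8 CPM in control and 525 ± 18.8 and 562 ± 31.5 in larvae labelled mutant. The Cyp4 sums overlapped between all 4 groups, with 677 ± 44.9 and 665 ± 35.2 CPM in control and 675 ± 20.9 and 647 ± 23.1 in larvae labelled mutant.

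**Figure D5:**
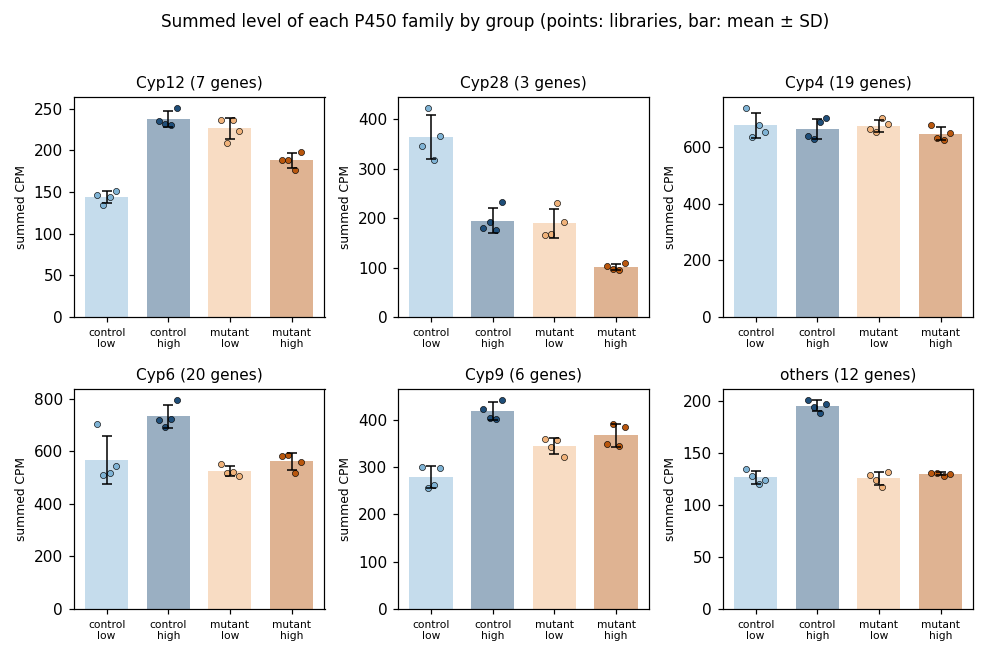
Summed CPM of the members of each P450 family in each library (points) of the 4 groups, with the group mean and its SD; n = 4 per group. The Cyp12 and Cyp9 sums of control are higher on high sugar, the Cyp28 sum is highest in control on low sugar at 364 ± 44.5 CPM, and the Cyp4 sums of the 4 groups lie within 647 to 677 CPM.

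Some members had no call. A diet call was missing in both genotypes for 12 of the 67 genes, and for 2608 of all 9837 tested genes. Among the 12 were Cyp6d4 (0.08 ± 0.09 and 0.04 ± 0.09), Cyp4e2 (-0.06 ± 0.08 and -0.15 ± 0.08) and Cyp9h1 (-0.10 ± 0.10 and -0.16 ± 0.10). A genotype call was missing on both diets for 10 genes, among them Cyp6w1, Cyp4c3 and Cyp4g1, and the matching number of all tested genes was not counted. Cyp301a1, Cyp318a1, Cyp4ae1, Cyp4e2, Cyp6a8 and Cyp6d4 had no call in any of these 4 comparisons. Without the 4 libraries of highest Tweedle levels Cyp4e2 gained a call for genotype on low sugar (0.21, adjusted p = 0.0360). For Cyp6a8, another gene raised in insecticide resistant strains, the missing calls depend on control low sugar replicate 1. Without that library the log2 difference was 0.54 for the diet in control (adjusted p = 0.00168) and 0.92 for genotype on low sugar (adjusted p = 5.27e-05). The genotype difference on high sugar does not use that library and was 0.54 with and without it. It passed without that library (adjusted p = 0.00208) through the spread, which is estimated over all libraries. Cyp6a20, known for an effect on aggression, and Cyp4p1 gained a call for the difference of the responses without that library (-0.87 and -0.75, adjusted p = 0.00634 and 0.0149). The total counts of members moved little, with 40 higher and 11 lower in the diet response of control.

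The genes that serve P450s did not move as 1 group. Of 6 electron transfer genes 1 rose and 2 fell on high sugar in control, and 1 rose and 4 fell in larvae labelled mutant. Cpr, which hands electrons to P450s of the endoplasmic reticulum, rose from 301.3 ± 24.9 to 353 ± 10.3 CPM in control (log2 difference 0.23 ± 0.05, adjusted p = 5.02e-04). The mitochondrial partners dare (-0.39 ± 0.05, adjusted p = 5.07e-06) and Fdx1 (-0.48 ± 0.06, adjusted p = 2.85e-06) had negative differences. Cyt-b5-r, a gene related to cytochrome b5, had 388 ± 34.7 CPM in control on low sugar and 758 ± 79.7 CPM in larvae labelled mutant (0.96 ± 0.08, adjusted p = 2.46e-07). On low sugar 3 of the 6 electron transfer genes were higher and 3 lower in larvae labelled mutant. Cyt-b5 was among the lower ones (-0.24 ± 0.07, adjusted p = 0.0113). Of all tested genes 23.1% were higher and 20.8% lower there. Of 9 genes of heme synthesis and breakdown 3 rose and 2 fell on high sugar in each genotype. For comparison, 33.1% of all tested genes rose and 34.8% fell in control, and 22.5% rose and 29.5% fell in larvae labelled mutant. Alas, the first and rate-limiting enzyme of heme synthesis, rose by 0.83 ± 0.10 (adjusted p = 2.68e-06) in control and 0.67 ± 0.10 (adjusted p = 4.59e-05) in larvae labelled mutant. Coprox, a later enzyme of that pathway, had diet differences of -0.46 ± 0.07 (adjusted p = 4.32e-05) and -0.37 ± 0.07 (adjusted p = 5.73e-04).

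Of 8 regulators linked to xenobiotic or nutrient responses, 6 rose and 1 fell on high sugar in control, and 4 rose and 0 fell in larvae labelled mutant. The shares of all tested genes were 33.1% and 34.8% in control and 22.5% and 29.5% in larvae labelled mutant. The nuclear receptor Hr96 rose by 0.37 ± 0.06 (adjusted p = 3.20e-05) in control, the ecdysone receptor EcR by 0.58 ± 0.10 (adjusted p = 6.10e-05) and maf-S, the partner of the stress factor cnc, by 0.41 ± 0.06 (adjusted p = 2.91e-05). Between the genotypes 1 regulator was higher and 0 lower on low sugar, namely the nuclear receptor Hr38 (1.52 ± 0.14, adjusted p = 5.76e-07), and 1 was higher and 2 were lower on high sugar. Of all tested genes 23.1% were higher and 20.8% lower on low sugar, and 21.1% and 18.9% on high sugar. Of the ecdysone synthesis genes, 6 of 8 were tested and spo and dib were not analysed here. On high sugar 1 rose and 1 fell in control, and 0 rose and 2 fell in larvae labelled mutant, while 0 were higher and 2 and 4 lower in larvae labelled mutant on low and high sugar. The P450 gene sad fell on high sugar, with -0.40 ± 0.09 (adjusted p = 7.59e-04) in control and -0.85 ± 0.09 (adjusted p = 1.20e-06) in larvae labelled mutant. Its genotype difference on high sugar was -0.96 ± 0.09 (adjusted p = 4.51e-07).

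Markers of tissues that hold P450s moved with the groups. On high sugar 33.1% of all tested genes rose and 34.8% fell in control, and 22.5% and 29.5% in larvae labelled mutant. Of 8 midgut markers 6 rose and 2 fell on high sugar in control, and their summed level was 1736 to 1934 CPM on low and 3390 to 4484 CPM on high sugar. Of the same markers 5 rose and 2 fell in larvae labelled mutant, with sums of 2722 to 3381 and 4034 to 5040 CPM. Of 5 Malpighian tubule markers 2 rose and 2 fell in control, and their sums were 218 to 241 and 144 to 175 CPM in control and 230 to 281 and 174 to 181 CPM in larvae labelled mutant. In both genotypes the sums fell with Uro and Irk2, whereas Lkr and ClC-a rose. In control Uro went from 81.4 ± 6.90 to 2.13 ± 1.59 CPM. For the fat body 3 of 6 markers were tested, of which 0 rose and 2 fell in each genotype. In larvae labelled mutant these were Lsp1beta and Lsp1gamma, which lay at only 0.901 and 1.07 CPM on low sugar. The abundant marker apolpp had no diet call there (-0.07 ± 0.09, adjusted p = 0.538). In control apolpp was among the markers that fell (-0.23 ± 0.09, adjusted p = 0.0297). Of 5 oenocyte markers, Cyp4g1 among them, 2 rose and 3 fell on high sugar in control. On low sugar 0 were higher and 4 lower in larvae labelled mutant, where 23.1% and 20.8% of all tested genes were so. Of the ring gland markers 4 of 5 were tested, and 1 rose and 1 fell on high sugar in control. No tested marker was at 0 in every library of a group. The part of tissue composition in the P450 values was not tested.

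The authors' deposited table called 39 of the 67 genes higher and 11 lower for the diet in control, with the same 50 calls and directions as the fit used here. The authors' deposited table called 17 genes higher and 16 lower for the diet in larvae labelled mutant, 22 and 20 for the genotype on low sugar and 12 and 34 on high sugar. Of the 33, 43 and 46 calls of the fit used here, 32, 42 and 46 were shared with that table in direction.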

How the data were processed

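Whole larval RNA was depleted of rRNA, made into stranded libraries and read as 75 bp single ends, per the labels' protocols. The submitters' processing notes name limma, HTSeq, TopHat2 2.1.0 and Trimmomatic without their roles, and no source used here gives the genome build. The authors deposited a table that is named CPM, but 9 of the 16 columns sum to more than CPM can, so the deposited values were handled as a signal whose scaling is unstated. CPM had been planned for, and the test is the same. The authors deposited log2 coefficients, moderated t scores and p-values of their own comparisons in the same table, from a model that is not stated, and only their calls were set beside the ones made here.

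For the 9837 genes that reached 1 CPM in 4 libraries or more, log2(CPM + 0.5) was fitted with limma 3.58.1 (R 4.3.3) with 1 mean per group and eBayes with trend (degrees of freedom: 12 residual, 2.97 prior). All tests were two-sided, with Benjamini-Hochberg adjustment within each of 5 comparisons. On simulated data with 200 changed genes of 9837 changes of 0.5 log2 units were recovered for 78.5% of genes in the control diet response and for 59.5% in the interaction. In the real data 67.9% and 16.9% of all tested genes passed in these comparisons. The simulated shares therefore do not give the power of the tests made here. No 2 replicates differed by as little as counting noise: the chi-square per degree of freedom was 13.9 to 127. Positions and lengths came from Ensembl's annotation of BDGP6, where 66 members were found by ID and 1, Cyp6a21, by symbol. No sequence was analysed here. Alternatives were other added constants, filters and scalings, robust eBayes, a replicate block, only the 8 libraries compared, each library left out and, chosen after seeing the data, the Tweedle level as a covariate and the 4 libraries highest in it left out. Python 3.11.15 with numpy 2.4.6, pandas 2.3.3 and matplotlib 3.10.9 served for tables and figures.

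The members, the gene lists and the tissue markers were chosen with earlier results of these data known. Values in every library were given mainly for the 5 largest rises and falls of each comparison of 2 groups that passed, reached 5 CPM in the higher group and did not overlap, the 4 largest interactions in each direction and the 5 highest members per kb. For Cyp12d1-d, Cyp6a8 and Cyp6a20 values by library were chosen after they were seen.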

Additional observations from a re-analysis of the deposited data

Results flagged for a closer look

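Of 120 sets of 4 libraries examined (30 named genes in 4 groups), 7 held 1 library far from the other 3 (Dixon's test at 95%), and chance alone flags about 1 in 20 groups. Control low sugar replicate 1 stood above its group for Cyp6a2 with 138.9 CPM, where the others lay at 76.8 to 78.2, and for Cyp6w1 with 18.5 CPM against 11.01 to 12.1. On high sugar control replicate 1 stood below its group for Cyp6w1, with 74.4 CPM against 84.9 to 85.8. Control low sugar replicate 4 stood above for Cyp12a4, with 93.5 CPM against 84.4 to 85.7. In larvae labelled mutant on high sugar replicate 3 stood above for Cyp18a1 (13.05 against 7.32 to 8.19 CPM). In that group replicate 1 stood above for Cyp4d14 (10.1 against 6.33 to 6.87 CPM) and replicate 4 stood below for Cyp4g1 (149 against 167 to 170.4 CPM).

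The sugar response of 14 named genes differed between the genotypes by the test of the difference itself. As log2 response in larvae labelled mutant minus that in control, it was -1.44 for Cyp12a5, -1.41 for Cyp18a1, -1.18 for Cyp309a1, -1.14 for Cyp6g1 and -0.996 for Cyp12a4. It was -0.73 for Cyp28d1, -0.66 for Cyp6a17, -0.62 for Cyp49a1, -0.61 for Cyp9b2, -0.57 for Cyp6a23, -0.55 for Cyp311a1 and -0.48 for Cyp6d5. It was 1.07 for Cyp4s3 and 0.86 for Cyp28d2. Without the 4 libraries of highest Tweedle levels Cyp28d1 (-0.61, adjusted p = 0.0926) and Cyp6a23 (-0.46, adjusted p = 0.0704) did not pass. Of the 16 fits that left out 1 library, Cyp18a1 lost its call in 8 and Cyp311a1 in 1.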

How the results depend on the processing

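Under the planned and added settings that leave no single library out, the number of P450 genes higher and lower was 34 to 41 and 9 to 12 for the diet in control, 15 to 20 and 15 to 17 for the diet in larvae labelled mutant, 21 to 23 and 17 to 22 for genotype on low sugar, 11 to 15 and 29 to 34 on high sugar, and 2 to 3 and 15 to 24 for the interaction. With each library left out in turn they were 36 to 40 and 11 to 12, 13 to 18 and 15 to 17, 20 to 23 and 17 to 21, 9 to 14 and 27 to 34, and 2 to 4 and 18 to 25. The interaction had 4 higher genes without labelled mutant low sugar replicate 1. No gene changed sign with a call. Of 196 calls of members over the 5 comparisons, 165 passed in every fit without 1 library and 31 did not in at least 1, while 35 values gained a call. The calls lost in most such fits were Cyp313b1 for the diet in control (12 of 16), Cyp12e1 in the interaction, Cyp4d1 for genotype on low sugar and Cyp9f2 for the diet in larvae labelled mutant (11 of 16 each). With the replicate block the interaction had 3 higher and 24 lower genes. The labels share replicate numbers across groups. These were not taken as pairs, because nothing in the labels ties them and same-numbered libraries correlated between -0.34 and 0.44 over 24 pairs, although the 6 pairs of replicate 2 all correlated at 0.14 to 0.44.

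Called values of named genes that moved by over 1.5 times, all without a change of direction, were those of Cyp4d8 and Cyp12d1-p with 2 CPM added, Cyp9f3Psi for the diet in larvae labelled mutant without low sugar replicate 4 of that group (0.31, adjusted p = 0.0632) or without the 4 libraries of highest Tweedle levels (0.27, adjusted p = 0.160), and, without the same 4 libraries, Cyp6d5 for genotype on low sugar (-0.17, adjusted p = 0.0699) and Cyp4d1 on high sugar (-0.30, adjusted p = 0.0257). Among uncalled values, Cyp18a1 reached 0.72 (adjusted p = 0.0273) for the diet in larvae labelled mutant without low sugar replicate 4 of that group, and Cyp4p2 1.51 (adjusted p = 0.0133) without high sugar replicate 3. The cause was not tested. With 4 libraries per group small differences can be missed, and genes of a few CPM rest on few reads.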
